A study of Mus musculus with 12 samples.

Results

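The genes described here are the 7 Fc receptor and receptor-associated genes of microglia, Fcgr1, Fcgr3, Fcgr4, Fcgr2b, Fcer1g, Fcrls and Fcgrt. They were taken by their gene symbols, whatever their values. All 7 are in the microglia table, among 29957 named entries, and 6 are in the hippocampus table, among 14663. Fcgr4 in the hippocampus was not analysed here. The samples come from C57BL/6 mice in 4 groups of 3: hippocampal microglia at 24 months, hippocampal microglia at 3 months, whole hippocampus at 18 months and whole hippocampus at 6 months. The labels name no treatment or transgene, and they do not give sex, the method by which microglia were isolated, or whether a sample is 1 mouse or a pool. Separate animals are not stated for the replicates of a group. A p-value here thus sets the difference between ages only against the spread of these samples within a group, and that spread may be technical.

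Fc receptors bind the constant part of antibodies and let a phagocyte take up what the antibody has coated. Fcgr1, Fcgr3 and Fcgr4 encode activating receptors for IgG, and each depends on Fcer1g, the gamma chain that carries the activation motif read by the kinase Syk. Fcgr2b encodes the inhibitory IgG receptor, which recruits the lipid phosphatase encoded by Inpp5d. Fcrls encodes an Fc receptor-like protein that marks resident microglia in mice. Fcgrt encodes the heavy chain of the neonatal Fc receptor, which protects IgG and albumin from breakdown inside cells and pairs with the light chain B2m.

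In the GENCODE M21 annotation (build GRCm38), 4 of the genes lie within 275.7 kb of chromosome 1. They are Fcgr2b (170958617 to 170976547), Fcgr4 (171018920 to 171029761), Fcgr3 (171051174 to 171064935) and Fcer1g (171229572 to 171234365). Fcrls (87250758 to 87263738) and Fcgr1 (96282909 to 96293969) are on chromosome 3, and Fcgrt (45092990 to 45103851) is on chromosome 7. The sequences below are the 60 bases before the RefSeq start sites (GRCm38.p6) of the activating receptors. They are shown because each holds the letters GAGGAA or, on the other strand, TTCCTC (in capitals), a form of the site of the myeloid factor PU.1.
Fcgr1, chr3:96293970-96294029, minus strand: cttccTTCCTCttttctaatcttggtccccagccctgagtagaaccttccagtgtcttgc
Fcgr3, chr1:171059395-171059454, minus strand: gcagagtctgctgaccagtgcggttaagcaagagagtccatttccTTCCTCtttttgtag
Fcgr4, chr1:171018866-171018925, plus strand: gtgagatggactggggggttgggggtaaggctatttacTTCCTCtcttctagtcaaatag
The match began 55 bases before the start in Fcgr1, 15 in Fcgr3 and 22 in Fcgr4. RefSeq lists a further start for Fcgr3, for which the same letters began 6 bases before the start. Of 32851 promoters searched on both strands, 6.08% held a match in the last 60 bases and 23.3% in the last 250. Within 250 bases Fcrls also held a match, 144 bases before its start, and no match to these letters was found for Fcgr2b, Fcer1g or Fcgrt. Of those 250 bases, 187 for Fcgr2b and 136 for Fcrls lie in exons of GENCODE M21. The RefSeq starts of Fcgr3 lie inside the gene as GENCODE M21 draws it. The searched bases are thus not all upstream of the genes. A match of letters does not show binding.

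The microglia libraries held 8072855 to 14226478 estimated counts. Microglia markers were present in all of them (12 of 12 markers in each library), with a summed level of 49441 to 65724 CPM at 24 months and 68020 to 72566 CPM at 3 months. Some libraries stood apart. Immediate early genes summed to 26078 and 28687 CPM in 24 month replicates 1 and 2, against 1172 CPM in 24 month replicate 3 and 839.3 to 1447 CPM in young microglia. Mitochondrial genes took 0.883% and 0.888% of counts in the same 2 libraries, and 0.249% to 0.326% in the other 4. The sum of neutrophil markers was 2777 CPM in 24 month replicate 1, against 31.4 CPM or less elsewhere, and that of mural cell markers 294.4 CPM there, against 26.9 CPM or less. Most of the mural sum there was Acta2 (2031 estimated counts) and Tagln (608). Rgs5 was higher in 24 month replicate 2 (266, against 82), and Pdgfrb and Kcnj8 were at 0 in all libraries. Among 7840 genes averaging over 10 CPM, 3 month replicate 1 lacked any count for 394 (5.03%), and the other libraries for 26 to 186. In whole hippocampus the microglia markers summed to 700.8 to 731.9 normalized counts at 18 months and to 572.0 to 693.7 at 6 months.

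Hippocampal microglia held large amounts of Fc receptor mRNA at both ages. The 7 genes together had 11115 to 12813 TPM (a transcript level corrected for length and depth) at 24 months and 11838 to 13629 TPM at 3 months. That was 1.24% to 1.43% of the summed TPM of the named entries at 24 months and 1.33% to 1.51% at 3 months. Fcer1g and Fcgr3 carried most of it. Fcer1g had 5035, 4716 and 5039 TPM at 24 months, against 4276, 5410 and 4730 TPM at 3 months, and ranked between 14 and 17 among all genes in every library. Fcgr3 averaged 3932 ± 461.5 TPM at 24 months and 4303 ± 53.3 TPM at 3 months (SD, n = 3 each). Fcrls followed at 2149 ± 289.0 TPM at 24 months and 3059 ± 362.0 TPM at 3 months.

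The other members were far lower per length. Fcgr2b averaged 455.0 ± 76.4 TPM at 24 months and 410.9 ± 59.0 TPM at 3 months, and Fcgr1 averaged 189.1 ± 33.9 TPM at 24 months and 187.5 ± 11.6 TPM at 3 months (SD, n = 3 each). Fcgrt averaged 110.5 ± 17.6 TPM at 24 months and 117.3 ± 34.3 TPM at 3 months, and Fcgr4, the lowest, 31.8 ± 8.16 TPM at 24 months and 10.3 ± 7.76 TPM at 3 months. Over the 6 libraries the order was Fcer1g, Fcgr3, Fcrls, Fcgr2b, Fcgr1, Fcgrt and Fcgr4. The ranges of neighbours in this order did not overlap, except for Fcer1g and Fcgr3.

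The main question of the design is which of these genes differ between old and young microglia. Levels for this comparison are CPM, estimated counts divided by library sizes that were scaled by the TMM method, and the test was edgeR's quasi-likelihood test. Fcgr4 was higher and Fcrls lower in every 24 month library than in any 3 month library, while the other 5 members overlapped between ages. No member passed the test over all genes: edgeR called 0 of 7 at an adjusted p under 0.05, where 0.0% of the 10663 tested genes were called. At an unadjusted p under 0.05 there was 1 member, Fcrls, against 5.53% of all tested genes. DESeq2, which called 1.47% of its genes, limma-voom, which called 0 genes, and the authors' deposited table, with 1.43% of genes called, also called 0 of 7. All libraries of 24 months lay higher for 1 member and for 7.26% of tested genes, and lower for 1 member and for 6.18%, or 13.4% in all.

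**Figure D1:**
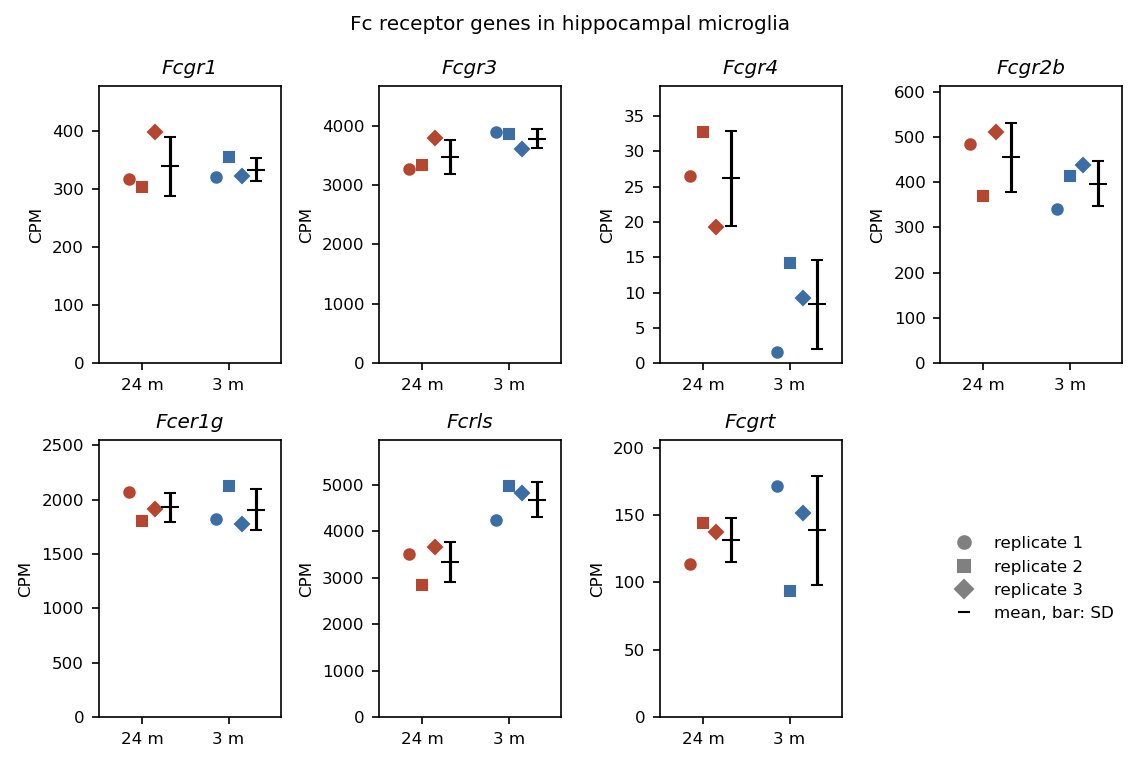
Levels of the 7 genes in hippocampal microglia, in CPM on an axis that starts at 0, with 1 symbol per library, 24 months left of 3 months; black marks are the mean and SD of 3 libraries. Fcgr4 is higher and Fcrls lower in all 24 month libraries, and the other genes overlap between ages.

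Fcgr4, an activating receptor for IgG2a and IgG2b in mice, had 26.5, 32.7 and 19.3 CPM at 24 months, against 1.64, 14.2 and 9.19 CPM at 3 months. The lowest old library thus lay above the highest young one. The mean was 26.1 ± 6.71 CPM in old and 8.35 ± 6.33 CPM in young microglia (SD, n = 3 each), a log2 change of 1.65 ± 1.0 (SE; edgeR adjusted p = 0.973, unadjusted p = 0.141). These levels rest on 203 to 324 estimated counts at 24 months and on 22, 114 and 135 at 3 months. The lowest value, 22 counts, is in 3 month replicate 1, the library in which many genes had no count. Without that library the log2 change was 1.16 ± 0.70 (SE). Neutrophils and monocytes also express Fcgr4. Neutrophil markers (10 in the list, Mmp8 at 0 in all libraries) had a high sum in 24 month replicate 1. Among them Cxcr2 went the other way, with 25 estimated counts there and 44 to 108 elsewhere. Monocyte markers (9 in the list, Vcan and Ace at 0) summed to 201.2, 33.1 and 6.93 CPM at 24 months and to 5.85 to 11.1 CPM in young microglia. In 24 month replicate 1 most of that sum was Chil3 (1801 estimated counts, 0 to 12 elsewhere). Ccr2 had 5 counts there and was highest in 24 month replicate 2 (216). Without 24 month replicate 1 the log2 change of Fcgr4 was 1.63 ± 1.2 (SE). Dendritic cell markers (5 in the list, 2 at 0 in all libraries) summed to 11.9 to 21.5 CPM in old and 5.11 to 7.56 CPM in young microglia, and their part in the Fcgr4 values was not tested.

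Fcrls had 3516, 2855 and 3660 CPM at 24 months, against 4251, 4971 and 4822 CPM at 3 months. All old libraries lay below all young ones, including 24 month replicate 3, which had low immediate early genes. The mean was 3344 ± 429.0 CPM in old and 4681 ± 379.8 CPM in young microglia (SD, n = 3 each), a log2 change of -0.49 ± 0.17 (SE; edgeR adjusted p = 0.815, unadjusted p = 0.0230). With both 24 month replicates of high immediate early genes left out, a setting chosen after seeing the data, the log2 change was -0.36 ± 0.16 (SE). That value sets a single old library against 3 young ones, so its error rests on the spread of the young libraries, and the old library is assumed to vary like them. Of the 12 microglia markers, 9 had a lower mean at 24 months and 2, Csf1r and Tmem119, had an unadjusted p under 0.05 as lower, where 2.02% of tested genes did. The median log2 change of these markers was -0.21, against 0.01 over all tested genes.

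**Figure D2:**
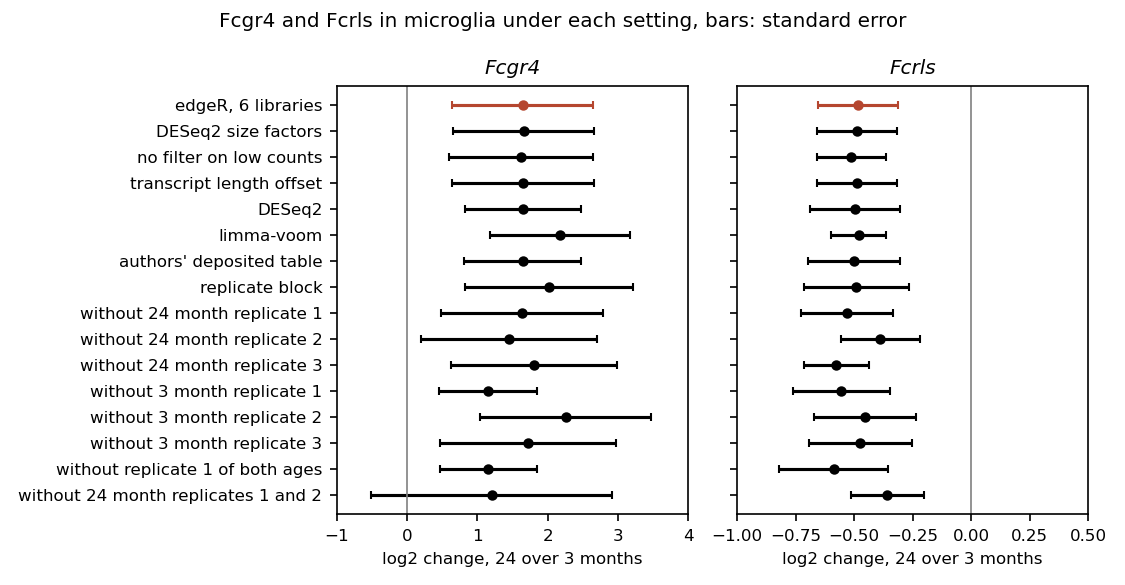
Log2 change (24 over 3 months) of Fcgr4 and Fcrls in microglia with its standard error under each tool, scaling, filter and left-out library; the edgeR value on 6 libraries is at the top. Fcgr4 lies between 1.15 and 2.25 and Fcrls between -0.59 and -0.36 in all alternatives.

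The abundant activating receptor and the gamma chain differed little between ages. Fcgr3 had 3277, 3330 and 3793 CPM at 24 months, against 3888, 3851 and 3600 CPM at 3 months (log2 change -0.12 ± 0.15, SE). Its groups overlapped because 24 month replicate 3 lay within the young range, and without that library the log2 change was -0.22 ± 0.099 (SE; edgeR adjusted p = 0.598). Fcer1g had 2071, 1805 and 1915 CPM at 24 months, against 1817, 2122 and 1778 CPM at 3 months (log2 change 0.02 ± 0.16, SE). Fcgr1, the high-affinity IgG receptor, had 316.7, 303.5 and 397.1 CPM at 24 months, against 319.8, 355.1 and 322.2 CPM at 3 months (log2 change 0.03 ± 0.19, SE). For Fcer1g and Fcgr1 the groups were interleaved, and the sign of their small log2 change turned when single libraries were left out, and for Fcer1g also with no filter on low counts.

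The inhibitory receptor Fcgr2b had 485.3, 368.6 and 510.2 CPM at 24 months, against 340.5, 412.6 and 437.7 CPM at 3 months (log2 change 0.20 ± 0.20, SE). Both groups overlapped, with 24 month replicate 2 inside the young range. With single libraries left out, the log2 change of Fcgr2b ran from 0.084 (without 24 month replicate 3) to 0.32 (without 24 month replicate 2), and it was 0.093 without 3 month replicate 1. Fcgr3 and Fcgr2b are close copies in the part that binds antibody: of the distinct 31-base stretches in Fcgr3 transcripts of GENCODE M21, 233 of 1733 (13.4%) also occur in Fcgr2b, so the split of reads between them is uncertain. Fcgr1, Fcer1g and Fcrls shared 0 such stretches with any other gene, and Fcgr4 1.39% of its own. The TPM of Fcgr1, Fcgr3 and Fcgr4 together over that of Fcgr2b, the balance of activating to inhibitory receptor mRNA, was 8.09, 10.8 and 8.88 at 24 months, against 12.6, 11 and 9.69 at 3 months. The ranges overlapped, and as the ratio is built from the members it was not tested.

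Fcgrt had 113.4, 144.2 and 137.7 CPM at 24 months, against 171.3, 93.5 and 151.5 CPM at 3 months (log2 change -0.08 ± 0.28, SE). The old libraries lay inside the young range, whose low end is 3 month replicate 2. B2m, the light chain that Fcgrt shares with MHC class I, had 3789, 4441 and 3276 CPM at 24 months, against 2661, 2521 and 2391 CPM at 3 months. The ages did not overlap for B2m, with a log2 change of 0.60 ± 0.17 (SE; edgeR adjusted p = 0.629).

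**Figure D3:**
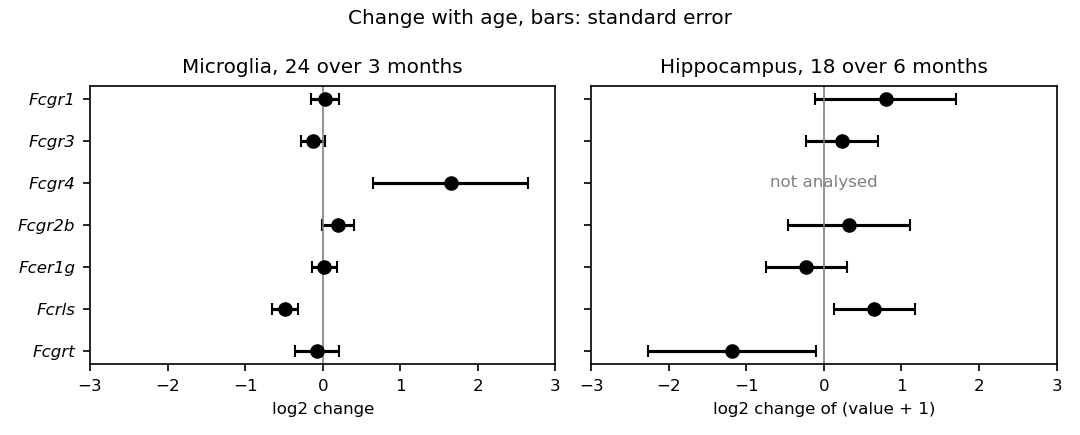
Log2 change with age of each gene with its standard error, in microglia (24 over 3 months, left) and whole hippocampus (18 over 6 months, right, on values plus 1). In microglia the bars of Fcgr4 and Fcrls lie farthest from 0, and no gene in either tissue passed the test over all genes.

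The genes whose levels over the 6 microglia libraries were most like a member's were found by the root mean square difference of centred log2 CPM, among tested genes within a 4-fold range of its mean level. For Fcrls these were Serinc3 (0.11), Trem2, a lipid-sensing receptor of microglia (0.12), and 4632428N05Rik (0.14), of 86 candidates. Fcgr3 was closest to Itm2b (0.048), Rgs10 (0.064) and Cmtm6 (0.085), of 97 candidates, and Fcer1g to the actin regulators Pfn1 (0.075) and Capzb (0.078) and the lysosomal thioesterase Ppt1 (0.080), of 228. The nearest genes to Fcgr4 were Gm3002 (0.28), E2f7 (0.28) and Rapgef2 (0.31), of 5543. These differences are to be read against each member's own spread about its mean on the same scale, which was 1.38 for Fcgr4, 0.28 for Fcrls, 0.099 for Fcer1g and 0.099 for Fcgr3. The neighbours of Fcer1g thus lay little closer to it than a gene with a flat level would. For Fcgr1 (own spread 0.13, 1905 candidates) the nearest genes were Sdhb (0.060), Tubb5 (0.063) and Rbck1 (0.073). For Fcgr2b (own spread 0.21, 1478 candidates) they were Cdk4 (0.073), Atp5f1 (0.096) and Atp6v1g1 (0.11). For Fcgrt (own spread 0.29, 3932 candidates) they were Gtf2a2 (0.11), Pramef8 (0.12) and Pik3cg (0.13). In hippocampus, on log2(value + 1), the closest gene was Timm10 for Fcgr3 (0.054), Mapk7 for Fcrls (0.13), Sik3 for Fcgr2b (0.16), Cysrt1 for Fcgr1 (0.27) and Polr2h for Fcgrt (0.28), among 3109 to 8554 candidates. The own spread there was 0.45 for Fcgr3, 0.52 for Fcrls, 0.61 for Fcgr2b, 0.85 for Fcgr1 and 1.73 for Fcgrt.

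Genes that work with Fc receptors were read from lists, and edgeR called 0 of them at an adjusted p under 0.05 in microglia. Of 24 tested kinases and adaptors of activating receptors, 11 lay higher and 13 lower in mean level in old microglia (median log2 change -0.06, against 0.01 over all tested genes). An unadjusted p under 0.05 was found for 3 as lower, where 2.02% of tested genes had one, and for 1 as higher, where 3.52% did. The lower ones were Vav2, an exchange factor for small GTPases (50.7 to 65.9 CPM in old and 86.8 to 184.1 CPM in young microglia, log2 change -1.09 ± 0.36, SE), and Pik3cd and Pik3r5, subunits of phosphoinositide 3-kinases (log2 changes -0.64 ± 0.25 and -0.84 ± 0.36, SE). The higher one was Pik3r1, another subunit of these kinases, with 213.6, 204.2 and 94.5 CPM at 24 months, against 26.3, 42.6 and 123.8 CPM at 3 months (log2 change 1.41 ± 0.60, SE), so the ages overlapped. Syk had 126.8, 100.3 and 78.2 CPM at 24 months, against 143.1, 126.9 and 146.9 CPM at 3 months. The groups were apart by a narrow margin, with a log2 change of -0.45 ± 0.26 (SE).

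Of 13 tested inhibitors of Fc receptor signalling, 6 lay higher and 7 lower in mean level in old microglia, with a median log2 change of -0.03. An unadjusted p under 0.05 was found for 2 as higher, where 3.52% of tested genes had one, and for 1 as lower, where 2.02% did. Dok1, an adaptor that dampens kinase signalling, had 56.6, 43.3 and 58.0 CPM at 24 months, against 96.8, 121.3 and 82.9 CPM at 3 months (log2 change -0.93 ± 0.31, SE; edgeR unadjusted p = 0.0191, adjusted p = 0.791). Ptprc, the CD45 phosphatase, had 747.0, 700.4 and 196.9 CPM at 24 months, against 78.1, 154.4 and 223.4 CPM at 3 months, so its high values were in the libraries with high immediate early genes (log2 change 1.85 ± 0.56, SE; edgeR unadjusted p = 0.0116, adjusted p = 0.663). Ptpn22, a phosphatase of Src-family kinases, had 2.12, 16.0 and 2.09 CPM at 24 months, against 0.0746, 0 and 0.204 CPM at 3 months (edgeR unadjusted p = 0.00977, adjusted p = 0.629). Inpp5d, the phosphatase that Fcgr2b recruits, had 591.8, 902.7 and 1044 CPM at 24 months, against 1072, 1072 and 1117 CPM at 3 months (log2 change -0.36 ± 0.23, SE).

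Further lists gave few differences in microglia. Of 19 tested genes of the phagocytic cup and actin, 0 had an unadjusted p under 0.05. They were led by the GTPases Rac2 (log2 change -0.41 ± 0.21, SE) and Rac1 (0.66 ± 0.36) and the exchange factor Dock2 (0.31 ± 0.19). Of 6 oxidase genes 0 did. The catalytic subunit Cybb had 35.9, 11.5 and 27.9 CPM at 24 months, against 0, 6.48 and 0 CPM at 3 months, so the ages were apart at a low level. The regulatory subunit Cyba (-0.35 ± 0.21, SE) and the proton channel Hvcn1 (-0.43 ± 0.27) lay lower in mean level in old microglia. Of 13 other receptors that pair with Fcer1g, 4 were tested, and Pirb, an inhibitory paired receptor placed on this list by its family, had 64.6, 55.4 and 44.7 CPM at 24 months, against 12.8, 32.7 and 36.7 CPM at 3 months (log2 change 1.0 ± 0.55, SE). Of 13 other Fc receptors and relatives only 3 passed the filter on low counts, B2m, Fcer2a (1.21 to 4.23 CPM in old and 0.597 to 1.5 CPM in young microglia) and Fcrl1, a B cell Fc receptor-like gene (101.8 to 167.9 CPM in old and 99.5 to 254.5 CPM in young microglia).

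Whole hippocampus held little Fc receptor mRNA, and no member passed the test between 18 and 6 months. Values here are the authors' normalized counts, tested with limma on log2(value + 1), which understates changes of low genes. In bulk tissue, fewer cells of a type and less RNA per cell cannot be told apart. limma called 0 of the 6 members at an adjusted p under 0.05, where 0.0% of the 13491 tested genes were called, 0 had an unadjusted p under 0.05, where 5.37% of genes did, and the authors' deposited table, with 0.246% of genes called, called 0 of the 5 members for which it gives an adjusted p. All 6 members overlapped between ages, while 11% of tested genes did not. Of genes with a mean of at least 15, 17 to 119 of 8693 were listed at 0 in a library, so a single 0 need not mean absent RNA.

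**Figure D4:**
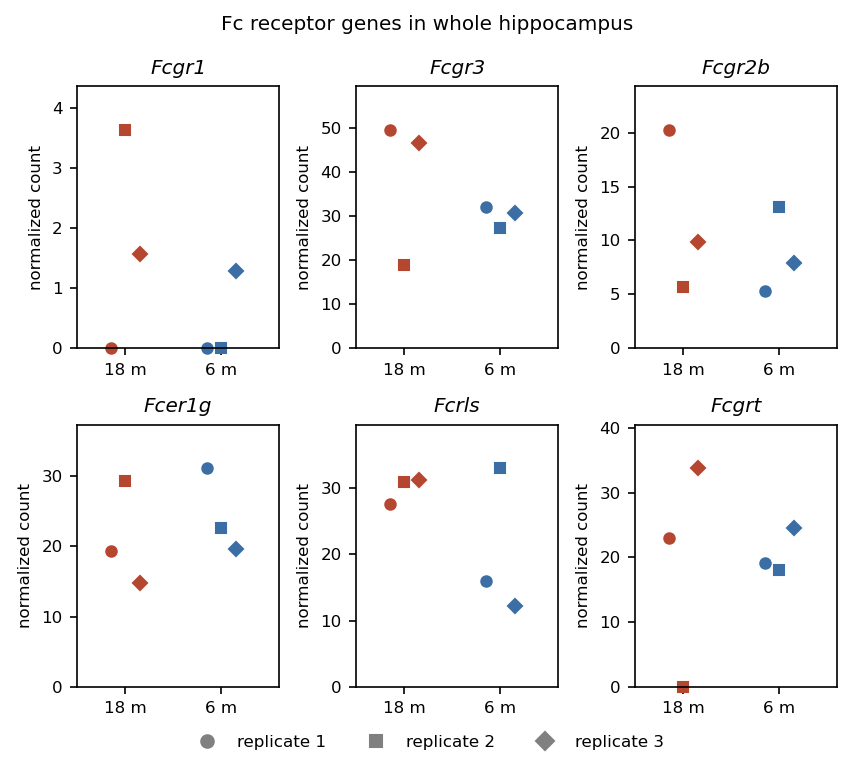
Normalized counts of the 6 genes in whole hippocampus, on axes that start at 0, with 1 symbol per library, 18 months left of 6 months. The ages overlap for every gene, and Fcgrt is listed at 0 in 18 month replicate 2.

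Among the activating receptors, Fcgr3 had 49.7, 18.9 and 46.7 normalized counts at 18 months, against 32.1, 27.3 and 30.6 at 6 months (log2 change 0.23 ± 0.46, SE). The spread at 18 months, with replicate 2 lowest, covered the whole 6 month range. Fcgr1 was near the limit, with 0, 3.64 and 1.57 normalized counts at 18 months, against 0, 0 and 1.28 at 6 months. It passed the filter with exactly 3 samples above the minimum, and 2 of these were of 18 months. Its log2 change was 0.79 ± 0.91 (SE). The gamma chain Fcer1g had 19.4, 29.2 and 14.7 normalized counts at 18 months, against 31.1, 22.6 and 19.6 at 6 months (log2 change -0.23 ± 0.52, SE).

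The inhibitory receptor Fcgr2b had 20.3, 5.72 and 9.85 normalized counts at 18 months, against 5.32, 13.1 and 7.94 at 6 months (log2 change 0.32 ± 0.78, SE). Fcrls had 27.5, 30.9 and 31.3 normalized counts at 18 months, against 16.0, 33.0 and 12.2 at 6 months. The 18 month values lay above 6 month replicates 1 and 3 and below 6 month replicate 2, and the log2 change was 0.65 ± 0.52 (SE; limma adjusted p = 0.917). Without 6 month replicate 2 it was 1.04 ± 0.58, and without 6 month replicate 3 it was 0.36 ± 0.58 (SE; limma adjusted p = 0.999 and 0.988). In hippocampus 3 of 12 microglia markers lay higher in every 18 month library and 1 lower, where the share of all tested genes was 5.03% as higher and 5.93% as lower, and the part of these markers in the Fcrls values was not tested.

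Fcgrt had 23.0, 0 and 33.7 normalized counts at 18 months, against 19.1, 18.0 and 24.6 at 6 months. The log2 change of -1.18 ± 1.08 (SE) rests on the library listed at 0, 18 month replicate 2, and was 0.43 ± 0.54 without it. The authors' deposited table gives Fcgrt -0.11 ± 0.79 (SE) for 18 over 6 months, turned here from 6 over 18 months.

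Of the lists, limma called 0 genes in hippocampus at an adjusted p under 0.05. Of 11 tested inhibitors of Fc receptor signalling, 8 lay higher in mean level in the older tissue (median log2 change 0.40, against -0.04 over all tested genes) and 3 lay higher in every 18 month library, where 5.03% of tested genes did. Inpp5d had 20.9, 59.9 and 15.1 normalized counts at 18 months, against 10.4, 1.61 and 8.29 at 6 months. Its log2 change was 2.09 ± 0.80 (SE; unadjusted p = 0.0208, limma adjusted p = 0.877). Ptpn6, a phosphatase of inhibitory receptors in blood cells, had 16.7, 16.1 and 12.3 normalized counts at 18 months, against 0, 6.74 and 9.48 at 6 months, and Cblb, a ubiquitin ligase, had a log2 change of -1.13 ± 0.64 (SE). Of 20 tested phagocytic cup and actin genes, 2 had an unadjusted p under 0.05 as higher, Rac1 (log2 change 1.04 ± 0.32, SE) and the actin-severing cofilin gene Cfl1 (0.53 ± 0.19), where 2.13% of tested genes had one. These genes and Bin1 (0.34 ± 0.18) are also expressed by other brain cells. Of 21 kinases and adaptors 1 had an unadjusted p under 0.05, Sos1, an exchange factor for Ras (-1.29 ± 0.53), as lower, where 3.24% did. Of 4 tested oxidase genes, 2 other Fc receptor relatives and 1 receptor that pairs with Fcer1g, 0 did.

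The balance among the members can be set side by side in isolated microglia and tissue as ratios of normalized counts within each sample. The tables were normalized separately and the ages differ, so no test was made. Fcgrt stood at 5.42% to 7.83% of Fcer1g in 24 month microglia and at 4.34% to 9.83% in 3 month microglia. In whole hippocampus Fcgrt was at 0%, 119% and 230% of Fcer1g at 18 months and at 61.6% to 126% at 6 months, above the microglia range in all samples but the library listed at 0. Fcgr2b was at 10.9% to 14.6% of Fcgr3 in 24 month microglia and 9.20% to 12.1% in 3 month microglia, against 21.1% to 40.8% in 18 month hippocampus and 16.6% to 48.1% in 6 month hippocampus. The hippocampus values rest on only 5.32 to 20.3 normalized counts of Fcgr2b, and the split of reads between Fcgr3 and Fcgr2b is uncertain. Fcrls was at 85.2% to 107% of Fcgr3 in 24 month microglia and at 110% to 136% in 3 month microglia. The ages of the microglia were apart by a narrow margin in this ratio, which holds the same Fcrls values as above. In hippocampus that ratio ran from 55.4% to 163% at 18 months and from 39.8% to 121% at 6 months, with replicate 2 highest at each age. Endothelial markers, of a cell type that expresses Fcgrt, summed to 305.6 to 405.2 normalized counts at 18 months and to 276.4 to 415.3 at 6 months in hippocampus, and to 51.9 to 132.8 CPM at 24 months and 23.5 to 45.5 CPM at 3 months in microglia. In every microglia library the endothelial marker with the most estimated counts was Pecam1 (341, 647 and 697 at 24 months, 160, 358 and 347 at 3 months). Others were high in single libraries, Kdr (347) and Cldn5 (148) in 24 month replicate 2 and Ly6c1 (93) in 3 month replicate 1. The part of endothelial markers in the ratio was not tested.

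**Figure D5:**
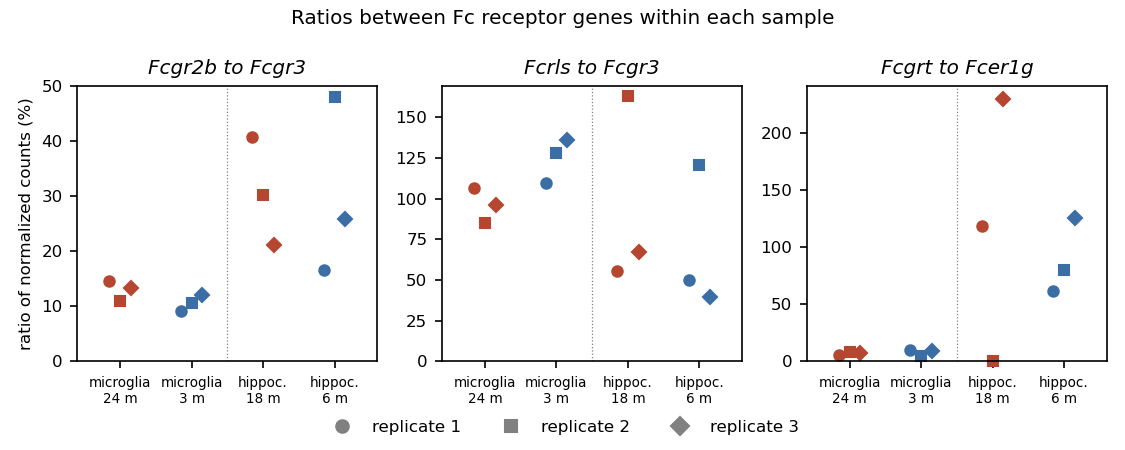
Ratio of 3 pairs of genes within each sample, in percent of normalized counts, for 24 month and 3 month microglia and 18 month and 6 month hippocampus, 1 symbol per library. Fcgr2b to Fcgr3 is at most 14.6% in microglia and at least 16.6% in hippocampus, where Fcgr2b is low (5.32 to 20.3 normalized counts). Fcgrt to Fcer1g is at most 9.83% in microglia.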

How the data were processed

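Complementary DNA of 6 microglia and 6 hippocampus samples was made with an oligo-dT primer and amplified, per the labels' protocols. The tools named in the submitters' processing notes are kallisto, DESeq and DESeq2, with no version. Those notes list GRCm39 and mm10 as builds, and the file each belongs to is not given. For microglia the authors deposited TPM, estimated counts and average transcript lengths, per the file headers. For each tissue the authors deposited a table of normalized counts (a signal scaled between samples) with log2 fold changes, Wald statistics (a score) and p-values, per the file headers. The log2 values of hippocampus are 6 over 18 months, judged from the table's sample columns, and were turned to 18 over 6. Estimated counts were rounded and tested with edgeR 4.0.16 (R 4.3.3, TMM, filterByExpr, 10663 genes). Hippocampus values were tested with limma 3.58.1 (mean trend) on log2(value + 1) for 13491 genes with at least 1 in at least 3 samples, because the table holds no counts. Tests were two-sided, with Benjamini-Hochberg adjustment over all genes and a threshold of 0.05. A standard error in edgeR is the log2 change over the square root of F. The edgeR and limma fits were checked on simulated data. DESeq2 1.42.0 and limma-voom were alternatives and were not checked in that way.

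The entry without a gene name held 0.0546% to 0.0771% of counts in microglia and 0.0233% to 0.0335% of signal in hippocampus and was left out. It was also left out of the summed TPM, and its part of TPM is not given here. The depth of hippocampus in reads is unknown. Reads have no molecular identifiers. Strand is not stated, so antisense reads cannot be told apart. The members and lists were chosen with earlier results of these data known. Named are all members, up to 3 genes with the smallest p of each list, and the 3 genes most like a member, of which only the nearest is given for hippocampus, and none there for Fcer1g. Some items are not reported here. Syk, Pik3r1, Inpp5d in microglia, Cxcr2, Chil3, Ccr2, Cd79a, Cd79b and Ms4a1 were chosen after their values were seen. Samples that share a replicate number were not treated as pairs.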

Additional observations from a re-analysis of the deposited data

How the results depend on the processing

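With the replicate number as a block, 0 genes were called in microglia and 0 in hippocampus, and 0 members. Same-numbered samples did not deviate together (r of -0.03 to 0.06 in microglia and of 0.0094 to 0.014 in hippocampus), and not every sample was closest to its own number. With all libraries edgeR called 0 genes in microglia (590 at an unadjusted p under 0.05) and limma 0 in hippocampus (725). The number called in microglia was 249 with DESeq2, 0 with limma-voom and 243 in the authors' deposited table, and 0 to 55 with single libraries left out, the 55 without 24 month replicate 3. In hippocampus it was 36 in the authors' deposited table and 0 to 1 with single libraries left out. No alternative called a member. Fcgr4 and Fcrls in microglia kept their sign in 15 of 15 alternatives. Signs turned for some members. With single libraries left out, the log2 change ran from -0.12 to 0.10 for Fcgr1, from -0.042 to 0.089 for Fcer1g and from -0.31 to 0.10 for Fcgrt in microglia. In hippocampus it ran from -0.0052 to 0.67 for Fcgr3, from -0.12 to 0.71 for Fcgr2b and from -2.13 to 0.43 for Fcgrt. Fcer1g was at -0.0091 with no filter. Without replicate 1 of both ages, chosen after seeing the data, Fcer1g was at -0.066 and Fcgrt at 0.20. Without 24 month replicates 1 and 2, also chosen then, Fcgr3 was at 0.0020. The cause was not tested. Fcgr1 in hippocampus fell under the filter without 18 month replicate 2 or 3 or 6 month replicate 3 and then has no value. The change of Fcgr4, a low gene with 3 samples a group and a wide spread, did not pass the test, and the reason was not tested.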

Other observations

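Cd79b, a signalling chain of the B cell receptor with the same kind of activation motif as Fcer1g, had 0, 293 and 712 estimated counts at 24 months and 645, 539 and 825 at 3 months, so it was absent from 24 month replicate 1 alone. Other B cell markers were highest in that library, where Cd79a had 40 counts (0 to 6 elsewhere) and Ms4a1 had 15 (0 to 1 elsewhere). Markers of mast cells, which use Fcer1g, were at 0 in all microglia libraries for 4 of 5 genes.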
